A study of Mus musculus with 15 samples.

Results

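The genes described here are 10 of the 19938 genes that had a probe set of their own: Cp, Anxa3, Wfdc2, Dcx, Snorc, Hs6st2, Vnn1, Clca3a1, Clca3a2 and Ugt2b35. They were chosen by their array signal at p23 (postnatal), which was much higher in Sox9-GFP+ cells than in GFP- cells of the pancreas, and are less familiar than the classical duct markers. Every gene was measured by 1 probe set that names that gene alone, and 10 of 10 passed the filter on dim genes. No cut-off was part of the choice: by size of the p23 difference the genes ranked from 2 (Snorc) to 605 (Clca3a1) among 16883 genes tested. In 10 of 10 the arrays of these groups did not overlap, as in 27.6% of all genes tested in that direction, but this follows from the choice, and the p23 difference of the 10 is a description without a test throughout.

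The 15 arrays, in 5 groups of n = 3, came from pancreata of mice that carried a green fluorescent reporter under Sox9 or Ngn3 control on a CD1 background. Bright GFP+ cells were taken from Sox9-EGFP embryos of ages e10.5 and e15.5, from Sox9-EGFP pups of age p23 and from Ngn3-EGFP embryos of age e15.5, and the last group was GFP- cells of the p23 pups. All 5 groups were sorted after dissociation with collagenase B, with trypsin if needed, and animals were pooled before each sort, so replicates measure the spread between pools and arrays rather than between single animals. GFP protein can outlast the transcript of the gene that drives it, so a GFP+ cell need not express that gene when it is sorted.

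Sox9 marks the progenitor epithelium of the embryonic pancreas and stays on in the ducts, the tubes that carry digestive enzymes to the gut and add bicarbonate and mucins. Ngn3 (Neurog3) switches on in cells that leave this epithelium to form islets. The 10 genes have varied jobs. Cp encodes ceruloplasmin, a copper enzyme that oxidises iron, and Anxa3 a calcium-dependent phospholipid-binding annexin. Wfdc2 encodes a small secreted protein of the WAP family, Dcx a microtubule-binding protein best known from migrating neurons, and Snorc a small proteoglycan known from cartilage. Hs6st2 adds sulfate to heparan sulfate chains, and Vnn1 (pantetheinase) frees pantothenate and cysteamine from pantetheine. Clca3a1 and Clca3a2 belong to a family of secreted or shed regulators of calcium-activated chloride channels, and Ugt2b35 joins glucuronic acid to small molecules.

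Promoter windows of 300 bases, from 250 before to 50 after a RefSeq start (GRCm38.p6), were found for 7 of the 10 genes. Snorc, Vnn1 and Anxa3 are named only. The windows shown are those of Cp, which was low in embryonic cells and high at p23, of Dcx, which was high in every GFP+ group, and of Clca3a1, which had the largest rise of the 10 between e10.5 and e15.5. Capitals mark matches, on either strand, to the SOX motif CATTGT, the HNF1 motif GTTAAT, the FOXA motif TGTTTAC, the ONECUT motif ATCAAT or the TEAD motif GGAATG. They lie at chr3:19956804-19957103 (Cp, plus strand), chrX:143933075-143933374 (Dcx, minus strand) and chr3:144760928-144761227 (Clca3a1, minus strand), and are written 5′ to 3′ on the gene's strand.
Cp: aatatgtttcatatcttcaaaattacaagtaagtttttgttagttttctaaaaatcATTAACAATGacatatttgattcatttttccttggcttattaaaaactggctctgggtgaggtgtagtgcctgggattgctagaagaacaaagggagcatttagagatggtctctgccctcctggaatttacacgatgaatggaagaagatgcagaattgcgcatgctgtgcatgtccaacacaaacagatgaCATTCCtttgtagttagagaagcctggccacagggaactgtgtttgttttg
Dcx: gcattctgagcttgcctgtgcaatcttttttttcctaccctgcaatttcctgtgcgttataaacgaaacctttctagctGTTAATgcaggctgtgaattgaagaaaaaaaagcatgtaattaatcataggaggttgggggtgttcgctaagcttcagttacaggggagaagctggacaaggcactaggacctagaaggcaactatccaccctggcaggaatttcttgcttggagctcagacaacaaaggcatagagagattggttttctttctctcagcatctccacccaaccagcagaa
Clca3a1: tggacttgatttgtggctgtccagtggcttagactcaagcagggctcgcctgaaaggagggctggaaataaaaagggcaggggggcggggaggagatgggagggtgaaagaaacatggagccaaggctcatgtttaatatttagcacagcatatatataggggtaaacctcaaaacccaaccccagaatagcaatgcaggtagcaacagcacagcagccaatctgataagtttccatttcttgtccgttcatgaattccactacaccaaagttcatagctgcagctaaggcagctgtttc
The Cp window held 1 SOX, 1 HNF1 and 1 TEAD match, the SOX and HNF1 matches sharing bases, and the Dcx window 1 HNF1 match. The Clca3a1 window held none of these letters. Over all 11 windows of the 7 genes, 1 held the SOX motif, 3 the HNF1 motif, 1 the FOXA motif, 0 the ONECUT motif and 3 the TEAD motif. Windows of alternative starts of a gene overlap in part and so share matches. For comparison 32851 promoter windows of this length were searched, with those of 1 chromosome left out. Of these windows 12.6% held the SOX motif, 7.1% the HNF1 motif, 3.65% the FOXA motif, 7.54% the ONECUT motif and 14.7% the TEAD motif. A match is a string of letters and says nothing of binding.

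The label "duct" was set against markers before the genes were described. Of 13 duct markers measured, 12 were higher in Sox9-GFP+ than in GFP- cells at p23, by a median of 2.88 on the log2 scale, among them the keratin Krt7 (3.45 ± 0.19, SE, n = 3 arrays per group, limma adjusted p = 3.79e-09) and the chloride channel Cftr (4.23 ± 0.40, limma adjusted p = 1.05e-06). Muc1 was not called (0.06 ± 0.26, limma adjusted p = 0.899). Transcripts of acinar cells were abundant in both p23 sorts, with summed intensities of 10 acinar markers between 62030 and 68910 in Sox9-GFP+ arrays and between 74145 and 81162 in GFP- arrays. The GFP- cells were rich in leukocyte transcripts. The sum over 13 leukocyte markers was 56302 to 84551 there and 2161 to 4658 in Sox9-GFP+ cells at p23, and 12 of the 13 were lower in the Sox9-GFP+ cells. The p23 comparison thus sets Sox9-GFP+ cells against a mixed population, and in bulk samples fewer expressing cells and less RNA per cell cannot be told apart. What part these other cells have in the p23 differences of the 10 genes was not tested.

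**Figure D1:**
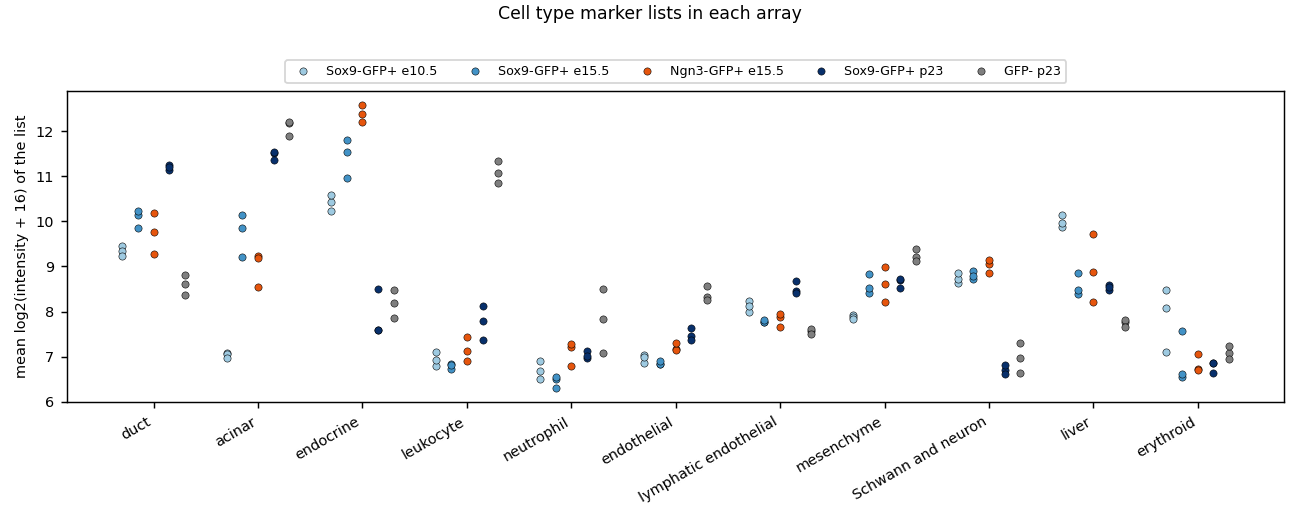
Mean log2(intensity + 16) of each cell type marker list (y axis) in each of the 15 arrays (points), coloured by group. The duct list is highest in the Sox9-GFP+ p23 arrays, between 11.14 and 11.24, and the leukocyte list in the GFP- p23 arrays, between 10.86 and 11.34.

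The 10 genes shared their p23 enrichment but not their history. Cp, Anxa3 and Snorc were low in all 3 embryonic groups and by far highest in the Sox9-GFP+ cells of p23. In GFP- cells of p23 Cp and Anxa3 had levels in between (means of 8.65 and 9.02), while Snorc (7.90) lay within its embryonic range. The other 7 already had a clear signal by e15.5 in the Sox9 sort, and 5 of them (Wfdc2, Vnn1, Clca3a1, Clca3a2 and Ugt2b35) had a lower mean at p23 than at e15.5 by more than their standard error. This grouping was made after the values were seen and carries no test. Levels are log2(intensity + 16) of the deposited linear signal, one log2 unit is a doubling, and 6.83 is the level of the dim gene filter (an intensity of 97.8).

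**Figure D2:**
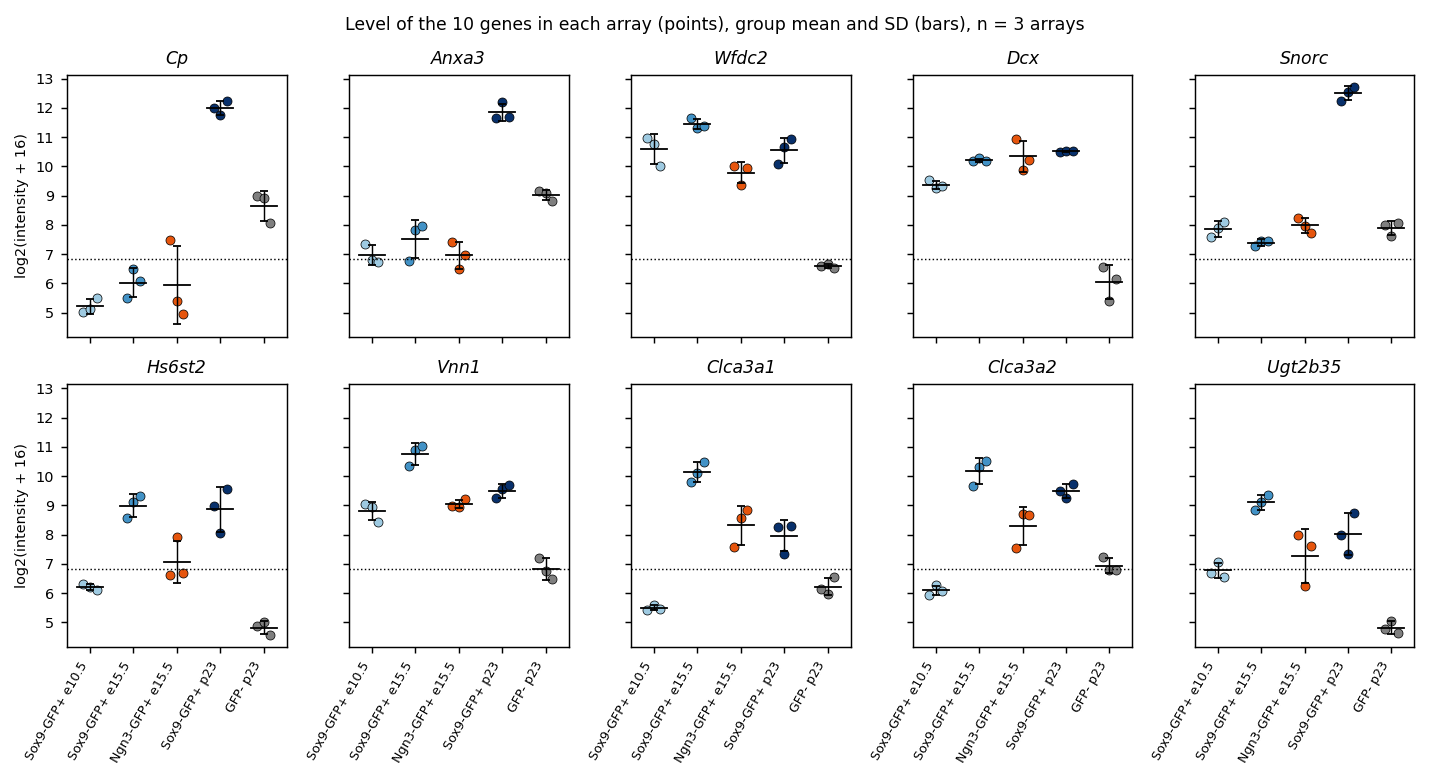
Level of each of the 10 genes, as log2(intensity + 16), in every array (points) of the 5 groups (x axis), with the group mean and SD (bars, n = 3 arrays). The dotted line at 6.83 is the dim gene filter. Cp, Anxa3 and Snorc stand out in the Sox9-GFP+ p23 arrays, at 11.66 and above, while the other genes are also high at e15.5.

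Snorc showed the widest gap. In Sox9-GFP+ cells at p23 its values were 12.25, 12.53 and 12.71. Its values were 8.01, 7.63 and 8.05 in GFP- cells of that age. The 3 embryonic groups lay between 7.27 and 8.23, so that no array outside the p23 Sox9-GFP+ group came within 4.02 log2 units of it. The p23 difference was 4.60 ± 0.17 (SE, n = 3 arrays per group), or 24.2-fold. Against Sox9-GFP+ cells of e15.5 those of p23 were higher by 5.10 ± 0.17. Its levels in GFP- cells, Ngn3-GFP+ cells and Sox9-GFP+ cells of e10.5 overlapped, and only Sox9-GFP+ cells of e15.5 lay below all arrays of e10.5.

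Cp, the iron oxidase, had values of 11.98, 11.75 and 12.23 in Sox9-GFP+ cells at p23. GFP- cells gave 8.98, 8.92 and 8.05, well above the dim level, and the groups did not overlap (3.33 ± 0.49, 10.1-fold). In embryonic Sox9-GFP+ cells Cp was under the filter level in every array, reading 5.04, 5.12 and 5.52 at e10.5 and then 5.50, 6.49 and 6.08 at e15.5. In the Ngn3 sort Cp read 7.48, 5.40 and 4.97, with replicate 1 alone above the filter level. That array also had the highest mean of the duct markers in its group (10.18, against 9.29 and 9.77). The same held for the acinar, endocrine, leukocyte and erythroid lists, but not for the other lists. What part any of these has in its Cp value was not tested. Cp is a major liver product, and Alb (albumin) stood at 10.14, 10.28 and 10.45 in the p23 Sox9-GFP+ arrays and at 7.20, 7.90 and 6.26 in the GFP- arrays. Of 11 liver markers measured 5 had a mean under the filter level in the p23 Sox9-GFP+ cells. Of 10 tested 3 were called higher than in GFP- cells (Alb, Ambp by 3.12 and Ttr by 0.83) and 1 lower (Fgb, -0.37). Means of the liver list were 8.49 to 8.58 in the p23 Sox9-GFP+ arrays and 7.66 to 7.82 in the GFP- arrays. Whether liver transcripts have a part in the Cp difference was not tested.

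Anxa3 was likewise highest in Sox9-GFP+ cells of p23 and next highest in GFP- cells. At p23 it read 11.66, 12.18 and 11.70 in the Sox9 sort, against 9.14, 9.11 and 8.82 in GFP- cells (2.82 ± 0.30, 7.08-fold). The 9 embryonic arrays lay between 6.50 and 7.98, and their 3 groups overlapped. Neutrophils and endothelial cells are other known sources of Anxa3. The means of the neutrophil list (6.96 to 7.13) and the endothelial list (7.37 to 7.63) in the p23 Sox9-GFP+ arrays lay at the low end of and below those in GFP- arrays (7.09 to 8.502 and 8.26 to 8.57). The lymphatic endothelial list went the other way, with 8.41 to 8.68 in Sox9-GFP+ and 7.51 to 7.61 in GFP- arrays. Of its 5 genes tested 3 were higher (Prox1 by 4.01, Pdpn by 2.20 and Reln by 0.69). Lyve1 was lower and Flt4 was not called (0.13). Prox1 was not confined to p23, with means of 11.31 in Sox9-GFP+ and 11.36 in Ngn3-GFP+ cells of e15.5. The part of any of these cells in the Anxa3 difference was not tested.

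Dcx, the neuronal microtubule protein, was the steadiest of the 10 in GFP+ cells. In the Sox9 sort it read 9.53, 9.26 and 9.33 at e10.5, 10.19, 10.27 and 10.18 at e15.5, then 10.49, 10.53 and 10.52 at p23. Ngn3-GFP+ cells gave 10.92, 9.87 and 10.22, overlapping both the e15.5 and p23 Sox9-GFP+ arrays. GFP- cells gave 6.57, 5.41 and 6.15, all under the filter level, and the p23 difference was 4.47 ± 0.26 (4.86 with an offset of 1 and 3.71 with an offset of 64). From e15.5 to p23 Dcx differed by 0.30 ± 0.26, while the 11 related microtubule genes tested were mixed in the same cells, with 3 higher and 4 lower. The tubulin Tubb3 (-4.88 ± 0.28, limma adjusted p = 1.45e-08) and Map1b, a microtubule-associated protein (-4.38 ± 0.35, limma adjusted p = 3.12e-07) fell, and Dclk1 rose (3.19 ± 0.24, limma adjusted p = 2.05e-07). The mean of 9 Schwann cell and neuron markers in the p23 Sox9-GFP+ arrays was 6.61 to 6.82, against 6.64 to 7.31 in GFP- arrays and 8.64 to 9.13 in embryonic arrays, and its part in the Dcx values was not tested.

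Wfdc2, the secreted WAP protein, was also high in all GFP+ groups. Its values were 10.98, 10.76 and 10.003 in Sox9-GFP+ cells of e10.5, 11.64, 11.31 and 11.38 in those of e15.5 and 10.08, 10.66 and 10.92 in those of p23. Those of e10.5 and p23 overlapped, and those of e15.5 lay above both. GFP- cells gave 6.60, 6.66 and 6.52, all under the filter level (p23 difference 3.96 ± 0.25).

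Hs6st2, Vnn1 and Ugt2b35 were all highest, by mean, in Sox9-GFP+ cells at e15.5. Hs6st2 rose from 6.30, 6.19 and 6.10 at e10.5 to 8.56, 9.10 and 9.31 at e15.5 and read 8.97, 8.05 and 9.56 at p23, the last groups overlapping. GFP- cells gave 4.86, 5.01 and 4.57 (p23 difference 4.05 ± 0.36, 16.6-fold). For Vnn1 the Sox9-GFP+ values were 9.03, 8.93 and 8.45 at e10.5, 10.33, 10.88 and 11.04 at e15.5 and 9.24, 9.56 and 9.71 at p23, with the e15.5 arrays above all others. Its GFP- values were 7.21, 6.76 and 6.48 (p23 difference 2.68 ± 0.22, 6.43-fold). Ugt2b35, the glucuronosyltransferase, read 6.68, 7.07 and 6.56 at e10.5, 8.85, 9.11 and 9.34 at e15.5 and 7.99, 7.32 and 8.75 at p23. Its GFP- values were 4.79, 5.04 and 4.62 (p23 difference 3.20 ± 0.39, 9.20-fold). Both Hs6st2 and Ugt2b35 were under the filter level in every GFP- array, where the added offset holds the fold down: with an offset of 1 their p23 differences were 5.13 and 4.23, and with an offset of 64 they were 2.76 and 2.03.

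Clca3a1 and Clca3a2 lie next to each other in the genome, and because their transcripts are related whether either probe set also responds to the other transcript was not tested. Clca3a1 went from 5.43, 5.59 and 5.46 at e10.5 to 9.80, 10.12 and 10.495 at e15.5 in Sox9-GFP+ cells, and read 8.25, 7.35 and 8.30 at p23. Clca3a2 went from 5.95, 6.27 and 6.07 to 9.67, 10.32 and 10.51, and read 9.49, 9.24 and 9.74 at p23. From e15.5 to p23 the pair thus changed unequally in these cells: Clca3a1 differed by -2.17 ± 0.31 and Clca3a2 by -0.68 ± 0.28. Within an array, Clca3a2 minus Clca3a1 was -0.12, 0.20 and 0.02 at e15.5 and 1.24, 1.89 and 1.44 at p23 in Sox9-GFP+ cells. It was also above 0 in Sox9-GFP+ cells of e10.5 (0.52, 0.68 and 0.61) and in GFP- cells of p23 (1.09, 0.82 and 0.25). In Ngn3-GFP+ cells it was -0.01, 0.14 and -0.18. The e15.5 and p23 ranges of Sox9-GFP+ cells did not overlap. This shows an unequal change of the 2 probe sets and not which of them is the more abundant transcript. The difference between the 2 changes was not tested. GFP- cells gave 6.14, 5.96 and 6.55 for Clca3a1 and 7.23, 6.78 and 6.80 for Clca3a2, with p23 differences of 1.75 ± 0.31 (3.36-fold) and 2.55 ± 0.28 (5.87-fold).

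**Figure D3:**
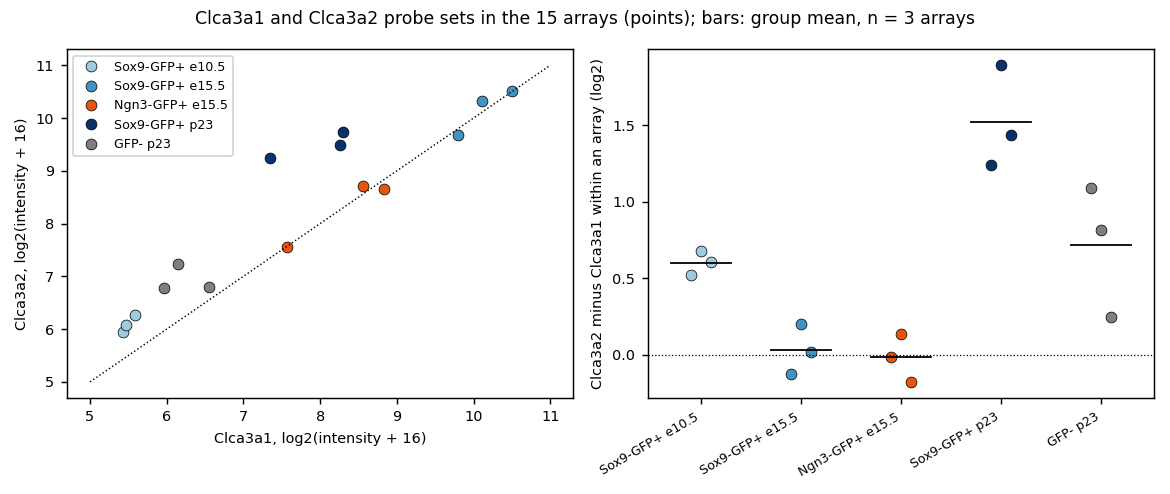
Left, Clca3a2 against Clca3a1, both as log2(intensity + 16), in the 15 arrays (points), with the line of equal values dotted. Right, the difference Clca3a2 minus Clca3a1 within each array by group (bars, mean of n = 3 arrays), between 1.24 and 1.89 in Sox9-GFP+ p23 arrays and between -0.12 and 0.20 in those of e15.5.

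Were the genes of the p23 ducts already switched on between e10.5 and e15.5? The difference between these ages uses no p23 array, though the error in the fit is shared by all 15 arrays and the genes were picked with earlier results of these data known. Of the 10 genes 7 rose in Sox9-GFP+ cells and 0 fell, where 12.2% of the 16883 genes tested rose and 16% fell. The arrays of the ages did not overlap in these 7 genes and, downwards, in 1 (Snorc), as in 26.1% and 31.2% of all genes. Among 13 duct markers 5 rose and 0 fell, with a median of 0.66. Markers of other cell types moved over the same interval. Of 10 acinar markers 6 rose and 0 fell, with list means of 6.98 to 7.09 at e10.5 and 9.20 to 10.15 at e15.5. Endocrine (5 of 10) and mesenchyme (4 of 11) markers rose as well. Of 10 liver markers tested 0 rose and 5 fell. Their part in the rises of the 7 genes was not tested. The median change was 1.40 over the 10 genes and -0.05 over all genes tested. The largest rise was that of Clca3a1, by 4.64 ± 0.31 (limma adjusted p = 3.69e-07), followed by Clca3a2 with 4.07 ± 0.28 (limma adjusted p = 5.3e-07). Both were under the filter level in every e10.5 array, so the size depends on the offset: Clca3a1 rose by 5.21 with an offset of 1 and by 3.66 with an offset of 64, and Clca3a2 by 4.41 and 3.36. Hs6st2, the heparan sulfate sulfotransferase, rose by 2.79 ± 0.36 (limma adjusted p = 0.000117) and Ugt2b35 by 2.33 ± 0.39 (limma adjusted p = 0.000988). Vnn1, the pantetheinase, rose by 1.94 ± 0.22 (limma adjusted p = 3.76e-05). These 5 were called in all 18 alternatives tried. Smaller rises were seen for Wfdc2 (0.86 ± 0.25, limma adjusted p = 0.0246) and Dcx (0.84 ± 0.26, limma adjusted p = 0.0303).

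The calls of Wfdc2 and Dcx did not hold under every alternative. That of Wfdc2 was lost without e10.5 replicate 3 (0.57, limma adjusted p = 0.126) and without e15.5 replicate 1, 2 or 3 (limma adjusted p = 0.0728, 0.0526 and 0.0678). That of Dcx was lost without e10.5 replicate 2 or 3 (limma adjusted p = 0.0956 and 0.0976) and without e15.5 replicate 1, 2 or 3 (limma adjusted p = 0.0607, 0.0871 and 0.0832), although its 2 groups did not overlap. It was also lost with an offset of 1 (0.86, limma adjusted p = 0.0529) and after quantile normalization (0.78, limma adjusted p = 0.0538). Cp (0.80 ± 0.49, limma adjusted p = 0.226) and Anxa3 (0.57 ± 0.30, limma adjusted p = 0.159) were not called, nor was Snorc (-0.46 ± 0.17, limma adjusted p = 0.0592), the only gene of the 10 whose e15.5 arrays all lay below those of e10.5. With only these 2 groups in the fit Cp was called (0.80, limma adjusted p = 0.03) and Snorc was called lower (limma adjusted p = 0.0301). Cp was under the filter level in every array of both ages, so its call rests on dim values. It had passed the filter through p23 arrays and Ngn3-GFP+ replicate 1. Without e15.5 replicate 1 Anxa3 was called (0.94, limma adjusted p = 0.0248), and without e10.5 replicate 1 Snorc was called lower (-0.60, limma adjusted p = 0.0232). Embryonic globin (Hbb-y) stood at 10.48 and 11.20 in e10.5 replicates 1 and 2 and at 9.98 in e15.5 replicate 1, against 5.93 to 6.35 in the other embryonic Sox9-GFP+ arrays. Without these 3 arrays Dcx was not called (0.89, limma adjusted p = 0.166) and Anxa3 was (1.16, limma adjusted p = 0.0411), and what part globin has in either was not tested.

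Did the genes follow the Sox9 sort at e15.5, when endocrine cells leave the epithelium? Of the 10 genes 6 were lower in Ngn3-GFP+ than in Sox9-GFP+ cells, 1 was higher and the others were not called, where 18.4% of all genes tested were lower and 23.3% higher. Among 13 duct markers 3 were lower and 0 higher in Ngn3-GFP+ cells, with a median of -0.24. Acinar markers moved with the 6 genes, 6 of 10 being lower and 0 higher. Their list means were 8.54 to 9.22 in Ngn3-GFP+ and 9.20 to 10.15 in Sox9-GFP+ cells. Endocrine markers went the other way, with 7 of 10 higher and 0 lower. Both sorts were rich in these transcripts, with list means of 12.20 to 12.58 in Ngn3-GFP+ and 10.97 to 11.80 in Sox9-GFP+ cells. The part of these cell types in the 6 differences was not tested. The median difference was -1.69 over the 10 genes and 0.04 over all genes tested. This comparison shares the Sox9-GFP+ e15.5 arrays with the one between ages, so an array that reads high at e15.5 moves both. The lower genes lay in a narrow range. Hs6st2 differed by -1.91 ± 0.36 (limma adjusted p = 0.00239), Clca3a2 by -1.87 ± 0.28 (limma adjusted p = 0.000669) and Ugt2b35 by -1.82 ± 0.39 (limma adjusted p = 0.00444). Clca3a1 differed by -1.82 ± 0.31 (limma adjusted p = 0.00137), Vnn1 by -1.71 ± 0.22 (limma adjusted p = 0.000276) and Wfdc2 by -1.67 ± 0.25 (limma adjusted p = 0.00069). The groups did not overlap in any of the 6, where 24.3% of all genes showed such a gap downwards. Upwards 1 gene (Snorc) did, where 31.8% of all genes did. All 6 were called in each of the 18 alternatives.

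Within Ngn3-GFP+ cells these 6 genes were reduced but mostly still above the filter level. Clca3a1 read 7.56, 8.56 and 8.83 there, Clca3a2 7.55, 8.70 and 8.65, Vnn1 8.96, 8.96 and 9.20, and Wfdc2 10.02, 9.36 and 9.95. Hs6st2 read 6.62, 7.90 and 6.70, and Ugt2b35 7.996, 6.24 and 7.59, each with an array that lay apart from the others. Sox9 itself read 11.21, 10.13 and 11.14 in these arrays, against 12.10 to 12.14 in Sox9-GFP+ cells of that age. Dcx (0.12 ± 0.26, limma adjusted p = 0.719) and Anxa3 (-0.57 ± 0.30, limma adjusted p = 0.132) were not called between the sorts, nor was Cp (-0.07 ± 0.49, limma adjusted p = 0.915). Without e15.5 Sox9-GFP+ replicate 1 Anxa3 was called lower (-0.95, limma adjusted p = 0.0195), and without Ngn3-GFP+ replicate 1 Cp was called lower (-0.84, limma adjusted p = 0.0488). All Cp values left in that comparison were under the filter level. Snorc was higher in Ngn3-GFP+ cells by 0.58 ± 0.17 (limma adjusted p = 0.0179). That call was lost without Ngn3-GFP+ replicate 1 (limma adjusted p = 0.0655), without Sox9-GFP+ e15.5 replicate 1 (limma adjusted p = 0.0594), and after quantile normalization (limma adjusted p = 0.0749) or median centring (limma adjusted p = 0.0695).

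**Figure D4:**
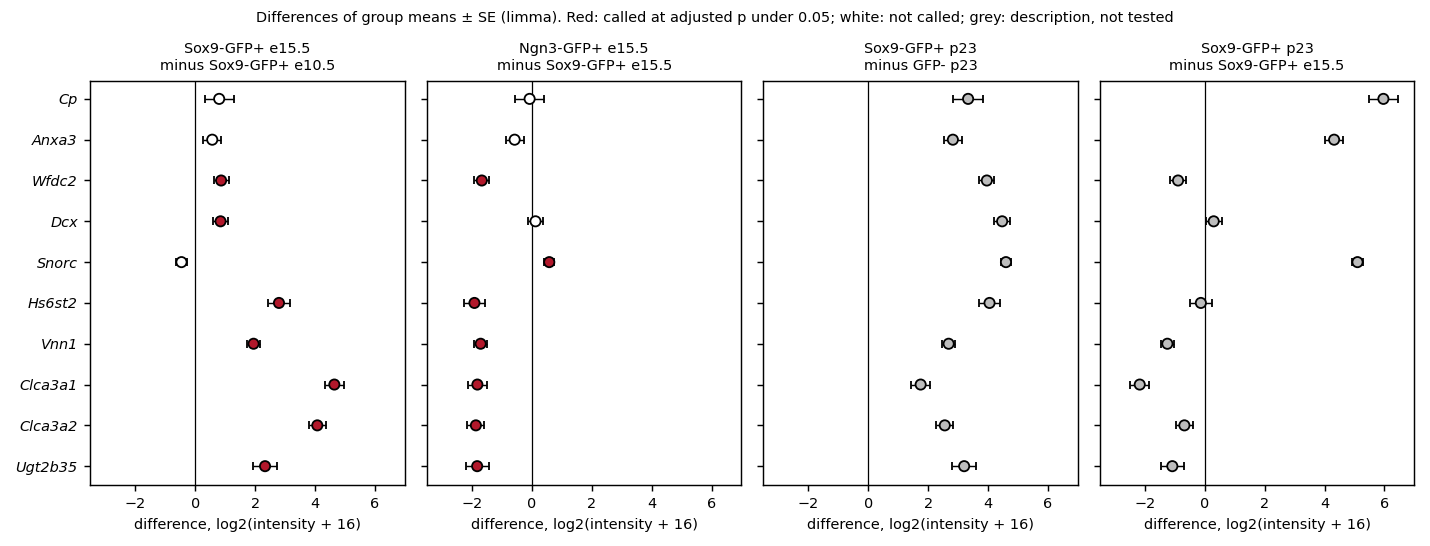
Difference of group means of the 10 genes (y axis), as log2(intensity + 16) with its limma SE, in 4 comparisons of 3 against 3 arrays. Red points were called at an adjusted p of 0.05, white ones were not, and grey ones are descriptions of the p23 arrays on which the genes were picked. Clca3a1 and Clca3a2 rise most between e10.5 and e15.5 (4.64 and 4.07), and Cp, Snorc and Anxa3 differ most between p23 and e15.5 (5.96, 5.10 and 4.32).

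Between e15.5 and p23 in the Sox9 sort the 10 genes differed in both directions, in shares near those of all genes. As the p23 arrays were those on which the genes were picked, these are descriptions. The groups did not overlap in 4 genes that were higher at p23 (Cp, Anxa3, Snorc and Dcx) and in 4 that were lower (Wfdc2, Vnn1, Clca3a1 and Ugt2b35), where 38.7% and 34.1% of all genes did so (30.7% of all genes were called higher and 26.8% lower). Cp differed by 5.96 ± 0.49 and Anxa3 by 4.32 ± 0.30, whereas Wfdc2 differed by -0.89 ± 0.25, Vnn1 by -1.25 ± 0.22 and Ugt2b35 by -1.08 ± 0.39. Hs6st2 differed by -0.13 ± 0.36, within the spread of its arrays.

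The genes also differed in how closely they ran together. Over the 15 arrays the correlation of the 45 pairs ranged from -0.20 to 0.97, with a median of 0.49. The 10 pairs among Hs6st2, Vnn1, Clca3a1, Clca3a2 and Ugt2b35, chosen after their values were seen, had correlations of 0.74 to 0.95 over 15 arrays and of 0.76 to 0.99 over the 9 embryonic ones. These arrays share their 5 groups, so the correlations mostly restate the group means. The nearest gene of each was sought outside the 10, with clone, predicted, pseudogene and small RNA names skipped. Over 15 arrays the one most like Snorc was Adgrf1 (an adhesion receptor, r = 0.9956). The one most like Cp was Ddo (D-aspartate oxidase, r = 0.9941) and the one most like Anxa3 was Tgfb3 (a TGF-beta ligand, r = 0.9937). Nearest to Wfdc2 was Gtf2i (r = 0.9914) and to Dcx B4galt6 (r = 0.9777). For Hs6st2, Vnn1, Clca3a1, Clca3a2 and Ugt2b35 the nearest genes were Phf20, Zkscan1, Plcl1, Sphk1 and Fam234b, with r between 0.9293 and 0.9641. Over the 9 embryonic arrays alone all 10 nearest genes were others, such as Nupr1 for Clca3a1 (r = 0.9957) and Slc38a3 for Clca3a2 (r = 0.9928).

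How did the relatives of the 10 genes behave at p23? In all 9 there were 152 related genes, of which 137 were measured and 115 tested. In Sox9-GFP+ against GFP- cells 41 of the 115 were higher and 11 lower, or 35.7% and 9.57%, where 21.5% and 14.5% of all genes tested were so. Their median difference was 0.16, and that of all genes 0.07.

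Several annexins were also higher. Of 13 annexins and S100 partners tested at p23, 7 were higher in Sox9-GFP+ cells and 0 lower, with a median of 0.73. Anxa13, an annexin of epithelia, was higher by 3.56 ± 0.34 (limma adjusted p = 1.14e-06), Anxa2, which pairs with S100a10, by 1.99 ± 0.19 (limma adjusted p = 1.19e-06) and Anxa4 by 1.97 ± 0.14 (limma adjusted p = 4.13e-08). Between e10.5 and e15.5, 9 of the 13 rose and 0 fell, S100a6 by the most (2.78 ± 0.63, limma adjusted p = 0.0073). Between the e15.5 sorts 0 were higher and 2 lower in Ngn3-GFP+ cells, one of them Anxa2 (-0.68 ± 0.19, limma adjusted p = 0.0136).

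Around Cp, 7 of 17 iron and copper genes were higher in Sox9-GFP+ cells at p23 and 2 were lower, with a median of 0.13. Slc40a1 (ferroportin, the iron exporter that works with ferroxidases) was higher by 1.68 ± 0.30 (limma adjusted p = 0.000399), the copper pump Atp7a by 1.56 ± 0.11 (limma adjusted p = 4.78e-08) and Heph (hephaestin, the membrane ferroxidase related to Cp) by 1.40 ± 0.16 (limma adjusted p = 5.77e-06). Unlike Cp, Heph was brighter in embryonic Sox9-GFP+ cells (7.80 to 8.48) than at p23 (7.32 to 7.50).

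WAP and Kunitz inhibitors, the kin of Wfdc2, included 4 of 11 that were higher and 2 that were lower, with a median of 0.28. Wfdc3 was higher by 3.47 ± 0.53 (limma adjusted p = 0.000123), Wfdc18 by 3.12 ± 0.28 (limma adjusted p = 7.05e-07) and Wfdc15b by 2.99 ± 0.35 (limma adjusted p = 9.93e-06), all WAP proteins. They differed in timing. Wfdc18 rose by 6.13 ± 0.28 between e15.5 and p23 (limma adjusted p = 1.52e-09), and Wfdc15b had risen by 2.82 ± 0.35 between e10.5 and e15.5 (limma adjusted p = 8.83e-05).

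Relatives of Dcx were mixed, with 4 of 11 tested higher, 1 lower and a median of -0.08. Dcdc2a, a doublecortin family gene of the primary cilium, was higher by 3.10 ± 0.20 (limma adjusted p = 2.28e-08) and Dclk1, a doublecortin-like kinase, by 2.94 ± 0.24 (limma adjusted p = 2.62e-07). Dclk3 was higher by 1.26 ± 0.32 (limma adjusted p = 0.00598), and Dclk2 was lower (-1.07 ± 0.18, limma adjusted p = 0.00023). Dclk1 was low in embryonic arrays (6.74 to 7.57), whereas Dcdc2a had risen by 4.95 ± 0.20 between e10.5 and e15.5 (limma adjusted p = 1.65e-09).

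The cartilage genes set beside Snorc were called at p23 in shares near those of all genes tested, 21.5% higher and 14.5% lower. Of 16 tested, 3 were higher in Sox9-GFP+ cells at p23 and 2 lower, with a median of 0.12. The 3 were Sox5 (2.79 ± 0.19, limma adjusted p = 3.87e-08) and Sox6 (1.75 ± 0.17, limma adjusted p = 1.72e-06), partners of Sox9 in chondrocytes, and the ion channel Trpv4 (1.65 ± 0.16, limma adjusted p = 1.73e-06). Cnmd (chondromodulin) rose by 3.895 ± 0.28 between e10.5 and e15.5 (limma adjusted p = 7.14e-07) and was lower in Ngn3-GFP+ cells (-3.47 ± 0.28, limma adjusted p = 9.84e-06).

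For the heparan sulfate enzymes around Hs6st2, 6 of 22 tested were higher at p23 and 3 lower, with a median of 0.13. The chain polymerase Ext1 was higher by 1.14 ± 0.14 (limma adjusted p = 1.26e-05) and Extl2 by 1.08 ± 0.20 (limma adjusted p = 0.00051), while Extl3 had a difference of -0.91 ± 0.20 (limma adjusted p = 0.00221). Of the sister 6-O-sulfotransferases, Hs6st1 was higher by 0.82 ± 0.21 (limma adjusted p = 0.0074) and Hs6st3 was not called (0.22 ± 0.14, limma adjusted p = 0.233). Between e10.5 and e15.5 the sulfotransferase Ndst4 rose by 2.13 ± 0.41 (limma adjusted p = 0.00265).

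In the pantetheine and coenzyme A list, 4 of 11 genes were higher at p23 and 0 lower, with a median of 0.16. Pank1, a pantothenate kinase that uses the product of Vnn1, was higher by 1.41 ± 0.22 (limma adjusted p = 0.000142), Btd (biotinidase, related to Vnn1) by 0.72 ± 0.17 (limma adjusted p = 0.00389) and Dcakd by 0.61 ± 0.20 (limma adjusted p = 0.0247). Vnn3, the closest relative of Vnn1, did not pass the dim gene filter and read 5.98 to 6.72 in all 15 arrays.

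Of 9 Clca family and chloride channel genes tested, 3 were higher at p23 and 0 lower, with a median of 0.49. They were Ano9 (2.13 ± 0.21, limma adjusted p = 1.48e-06), Ano1, a calcium-activated chloride channel (1.49 ± 0.32, limma adjusted p = 0.00186), and Ano6 (1.14 ± 0.16, limma adjusted p = 5.78e-05). Clca3b, the next protein-coding gene after Clca3a2, was not called (1.23 ± 0.56, limma adjusted p = 0.104). Clca4a and Clca4b did not pass the filter and read 6.28 to 7.03 and 5.15 to 6.49 over all arrays. Clca1 was higher in Ngn3-GFP+ cells by 2.72 ± 1.02 (limma adjusted p = 0.046), a value set by replicate 3, with 6.71, 7.53 and 12.78 in the 3 arrays.

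Of 23 genes in the glucuronidation list, 12 were measured and 5 passed the filter (Ugt2b34, Ugt2b36, Ugt8a, Ugdh and Ugp2). All 5 rose between e10.5 and e15.5, with a median of 0.99, and all 5 were lower in Ngn3-GFP+ cells, with a median of -1.08. Ugt8a, which makes galactosylceramide and is no glucuronosyltransferase, rose by 2.51 ± 0.25 (limma adjusted p = 1e-05). Ugt2b34, a close relative of Ugt2b35, rose by 2.06 ± 0.31 (limma adjusted p = 0.000439). At p23 the 5 parted, with 3 higher and 1 lower in Sox9-GFP+ cells: Ugt8a differed by 3.29 ± 0.25 (limma adjusted p = 9.08e-08), Ugt2b36 by 0.46 ± 0.16 (limma adjusted p = 0.037) and Ugt2b34 by -1.53 ± 0.31 (limma adjusted p = 0.00125). Ugt2b34 thus ran against Ugt2b35, reading 7.05, 8.31 and 8.06 in the Sox9 sort of p23, all below the 9.65, 9.03 and 9.32 of GFP- cells. Ugt2b genes are close in sequence, and whether their probe sets respond to each other was not tested.

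**Figure D5:**
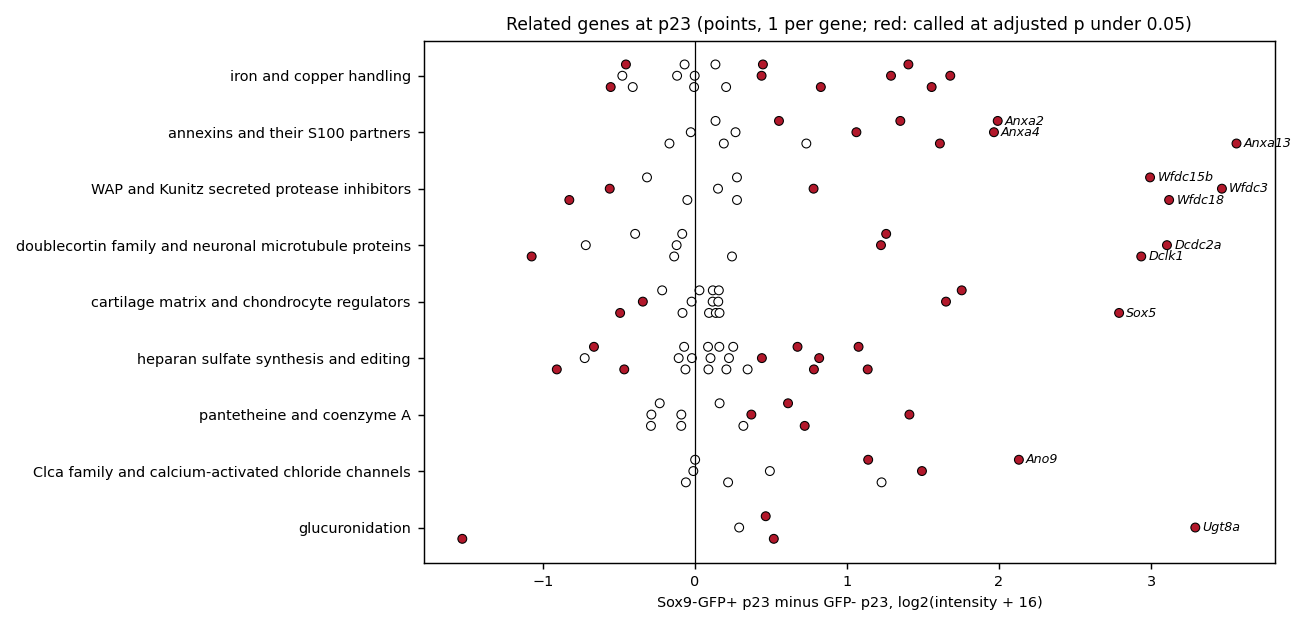
Difference between Sox9-GFP+ and GFP- cells at p23 (x axis, log2(intensity + 16)) of the 115 related genes tested (points), by list (y axis), with genes called at an adjusted p of 0.05 in red and those past 1.9 named. Anxa13, Wfdc3 and Ugt8a lie farthest to the right, at 3.56, 3.47 and 3.29, and Ugt2b34 farthest to the left, at -1.53.

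The replicates of the Ngn3 sort were the least alike, with correlations over the 16883 genes tested of 0.933 to 0.952. Those of Sox9-GFP+ cells of e15.5 were the most alike, with 0.9875 to 0.9947. After median centring the median change over all genes tested went from -0.05 to 0.11 between the embryonic ages and from 0.04 to -0.14 between the e15.5 sorts. The share of higher genes among all called went from 43.3% to 73.7% and from 55.9% to 28.2%, and with quantile normalization to 62.7% and 42.5%. The 7 rises and the 6 falls given above kept their direction under both scalings, and Dcx lost its call under quantile normalization.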

How the data were processed

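The deposited values are linear intensity per probe set, which the authors made with PLIER (Affymetrix Expression Console 1.1), as the submitters' processing notes name it. Between-array normalisation is not described in the sources used. Per the labels' protocols, amplification began from 20 ng of total RNA, and 3.75 ug of the product was labelled. The table holds 35557 probe sets in 15 arrays, with array medians of 165.5 to 211.7. The number of arrays limits the precision.

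Of the probe sets, 21789 named 1 gene, 1621 several and 12147 none, and the first kind covered 19938 genes. The probe set of highest mean stood for a gene. Genes whose intensity exceeded 97.8 (percentile 30 of the whole table) on 3 arrays or more were tested. All 15 arrays entered 1 limma fit of log2(intensity + 16), with a mean per group. Benjamini-Hochberg adjustment ran over all 16883 genes of a comparison, with calls at 0.05. An exact rank test of 3 against 3 arrays cannot go below p = 0.1. P-values measure the spread between pools and arrays only.

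The 10 genes and all lists were chosen with earlier results of these data known. Named were the 10 genes, up to 3 called relatives per list at p23 and up to 1 in each other comparison. Close relatives of the 10 were also named, as was the gene most correlated with each, skipping clone, predicted, pseudogene and small RNA names. Other genes were named after their values were seen. Alternatives covered offset, scaling, filter, probe sets, arrays fitted, variance model, array weights, replicate block and each array left out. A fit without arrays with Hbb-y above 9 was added after seeing the data. The code was tested on simulated data. Software: R 4.3.3, limma 3.58.1, Python 3.11.15 and matplotlib 3.10.9.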

Additional observations from a re-analysis of the deposited data

How the results depend on the processing

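The 5 rises of Hs6st2, Vnn1, Clca3a1, Clca3a2 and Ugt2b35 between e10.5 and e15.5, and the 6 falls in Ngn3-GFP+ cells, were called in all 18 alternatives of each comparison. Over the 10 genes and both comparisons, 328 of the recomputed changes kept direction and side of the threshold, 17 lost the call, 9 gained it and 6 changed sign. The sign changes were all of uncalled values in the comparison of e15.5 sorts: Cp was at 0.043 with an offset of 64 and between -0.84 and 0.42 with 1 array left out, and Dcx at -0.062 after median centring and between -0.17 and 0.36 with 1 array left out. Leaving out 1 array gave 5 to 7 genes of the 10 higher and 0 to 1 lower at e15.5 than at e10.5, and 0 to 1 higher and 6 to 7 lower in Ngn3-GFP+ cells. One of the 10 was called lower at e15.5 (Snorc) when only the 2 groups were fitted and with array weights (1 in each). In Ngn3-GFP+ cells 0 were called higher after quantile normalization, after median centring and without the arrays with embryonic globin signal. Of all genes, 2725 were called between e10.5 and e15.5 after quantile normalization, 7149 with only the 2 groups fitted, 2673 without the globin arrays and 1840 (without e15.5 replicate 3) to 5952 with 1 array left out, against 4754. Between the e15.5 sorts the counts were 4072 after quantile normalization and 3757 (without Sox9-GFP+ replicate 3) to 6839 with 1 array left out, against 7034. Related genes lower at p23 numbered 7 with the filter at the median, against 11, and fewer genes were tested there. The cause of the other shifts was not tested. With the replicate number as a replicate block, 7 of the 10 genes were higher and 0 lower at e15.5, and 1 was higher and 6 lower in Ngn3-GFP+ cells, so the block changed none of these counts. It called 3695 genes in all between e10.5 and e15.5 and 6246 between the e15.5 sorts. Deviations of same-numbered arrays correlated at -0.21 to 0.20, so the numbers were not taken as pairs. Between the p23 and e15.5 Sox9-GFP+ groups, every array correlated best with its own number, a hint from the data and not the design. Signals under the filter level in one of the groups limit the sizes given for Cp, Dcx, Wfdc2, Hs6st2, Ugt2b35, Clca3a1 and Clca3a2. The same holds for Vnn1, whose mean in GFP- cells of p23 (6.82) lay just under that level. With an offset of 64 its p23 difference was 2.26, against 2.68.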
